A study of Mus musculus with 6 samples.

Results

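G6pdx, Pgd, Taldo1, Tkt, Me1, Idh1, Idh2 and Nnt encode enzymes of the pentose phosphate pathway and the other main dehydrogenases, together with the transhydrogenase, that make NADPH. The rule was to take the named enzymes of these routes. It used no measured value, although the members were chosen with earlier results of these data known. All 8 had a row among the 24454 genes of the deposited table, and all 8 were among the 11524 genes with at least 1 CPM (a gene's reads as a part of its library's reads, on a common scale) in at least 2 libraries. RNA was measured by rRNA-depleted total RNA sequencing of Py2T, an epithelial line from a mouse mammary tumour driven by the polyoma middle T antigen, in 3 groups of 2 libraries. C40 cells had received 40 µM H2O2 daily over 4 months, and I60 cells had received 60 µM H2O2 daily over the same 4 months. The control cells are named PBS (0 µM H2O2, also 4 months), although the treatment protocol describes them as untreated. The libraries of a group are described as biological duplicates, and whether they were treated apart is not known here. The p-values therefore measure the spread between these libraries, which may be technical. Each dose has 1 named line, so an effect of H2O2 and a drift of that line for other reasons cannot be told apart.

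NADPH is the reducing agent that keeps glutathione and thioredoxin able to remove peroxides, and it also drives the synthesis of fatty acids, cholesterol and proline. In the cytosol it comes mainly from the oxidative pentose phosphate branch (G6pdx, Pgd), from malic enzyme (Me1) and from isocitrate dehydrogenase (Idh1). The non-oxidative branch (Taldo1, Tkt) carries carbon between pentose phosphates and glycolysis, and in mitochondria Idh2 and Nnt are sources of NADPH. Several of these genes are known targets of NRF2, a transcription factor of the oxidative stress response that binds the antioxidant response element (ARE).

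The libraries held 48113692 to 60260520 recovered reads. Cdh1, which encodes E-cadherin, had 59.7 and 87.8 CPM in C40, 0.187 and 0.129 CPM in I60 and 529 and 537 CPM in PBS. Vim, an intermediate filament gene of mesenchymal cells, had 2229 to 4286 CPM in the 4 libraries of the H2O2 lines and 40.5 and 18.8 CPM in PBS. Krt8 and Krt18, keratins of simple epithelium, had at least 1059 and 1325 CPM in all 6 libraries, whereas the summed level of 5 epithelial markers was 3091 to 3752 CPM in C40 and I60 and 6596 and 6832 CPM in PBS. The summed level of 4 mesenchymal markers was 4795 to 13021 CPM in C40 and I60 and 1166 and 1746 CPM in PBS. By limma all 4 were called higher in C40 and 3 of them in I60, where Fn1 did not pass. Not a read of Lum, Fap or Thy1 was found (3 of 5 fibroblast markers), and the summed level of the list was 31.2 to 107 CPM in C40 and I60 and 0.0830 to 0.228 CPM in PBS. The other 2, Dcn and Pdgfrb, were both called higher in C40 by limma, and 1 of them, Pdgfrb, in I60. The summed level of 4 immune markers, of which 2 had 0 reads throughout, was 4.30 and 3.61 CPM in C40, 16.3 and 28.0 CPM in I60 and 4.64 and 5.06 CPM in PBS. Nearly all of it was Cd68, a macrophage and lysosome marker, which rose in I60 (16.2 and 28.0 CPM, against 4.29 and 4.99 CPM in PBS; log2 2.09, limma adjusted p = 0.00292). Ptprc, the pan-leukocyte marker, was at most 0.350 CPM in any library. The 3 endothelial markers summed to at most 0.603 CPM and the 3 adipocyte markers to at most 0.0562 CPM. The part of these marker differences in the results below was not tested. The C40 libraries stood further apart than those of the other groups: 1022 genes differed over 2-fold between them, against 217 in I60 and 223 in PBS.

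For G6pdx, Pgd and Me1 the interest lies in the ARE, and for Idh2 in the CCAAT box and GC box before the start its window uses (which lies inside the longest annotated extent of the gene), so the bases around these matches are shown. RefSeq promoter windows (GRCm38.p6, from 250 bases before to 50 after a gene's start) were at hand for 7 members, in 10 windows. The motifs searched on both strands were the ARE core TGACNNNGC, a sterol response element core TCACNCCAC, CCAAT and the GC box GGGCGG; none contains another. The ARE core was in 3 of the 10 windows, against 12.4% of 32851 windows of the same length. In Pgd it began 3 bases after the second annotated start, and the window of the other Pgd start had 0 matches. The sterol core was in 0 of 10, against 1.24%. CCAAT was in 5 of 10, against 37.4%, and the GC box in 8 of 10, against 35.7%. Idh2 was not alone in having both in the same window, since Pgd, Taldo1 and Idh1 also did. A match is a run of letters and was not tested as a binding site. The 4 stretches are given 5′ to 3′ on the strand of their gene, with the match in capitals (for G6pdx the ARE core is on the opposite strand, so its capitals read as the reverse complement).
G6pdx, 57 bases before its start (chrX:74428919-74428947, minus strand): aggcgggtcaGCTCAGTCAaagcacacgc
Pgd, by its second annotated start (chr4:149166061-149166089, minus strand): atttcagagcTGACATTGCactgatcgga
Me1, across its start (chr9:86695902-86695930, minus strand): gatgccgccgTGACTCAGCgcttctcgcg
Idh2, CCAAT followed by the GC box (chr7:80115374-80115403, minus strand): gggtgagacCCAATgGGGCGGcaggttctg

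C40 and I60 were each compared with PBS to show what differed after long-term H2O2 at either dose. Idh2, the mitochondrial NADP-dependent isocitrate dehydrogenase, rose about 2-fold in both H2O2 lines. Me1, the cytosolic malic enzyme, fell in I60. No other member passed the test in either line. In C40, 1 of the 8 members was called higher and 0 lower by limma (adjusted p below 0.05), beside 11.2% of all genes tested called higher and 9.02% called lower (20.2% in all). At an unadjusted p below 0.05, 1 member was higher and 2 were lower in C40, and likewise 1 and 2 in I60. The share of all genes at an unadjusted p below 0.05 was not counted, so such counts, here and below, are descriptions. In C40, edgeR and DESeq2 each called 1 member higher and 0 lower (8.82% and 13.1% of all genes were called lower). In I60, limma called 1 of 8 higher and 1 lower, beside 13.9% and 13.1% of all genes (27.1% in all). There edgeR and DESeq2 also called 1 higher and 1 lower, and their counts over all genes are given with the processing. The median log2 fold change over the 8 members was -0.19 in C40 and -0.35 in I60, and over all genes tested it was -0.02 and -0.002. Both comparisons share the PBS libraries.

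**Figure D1:**
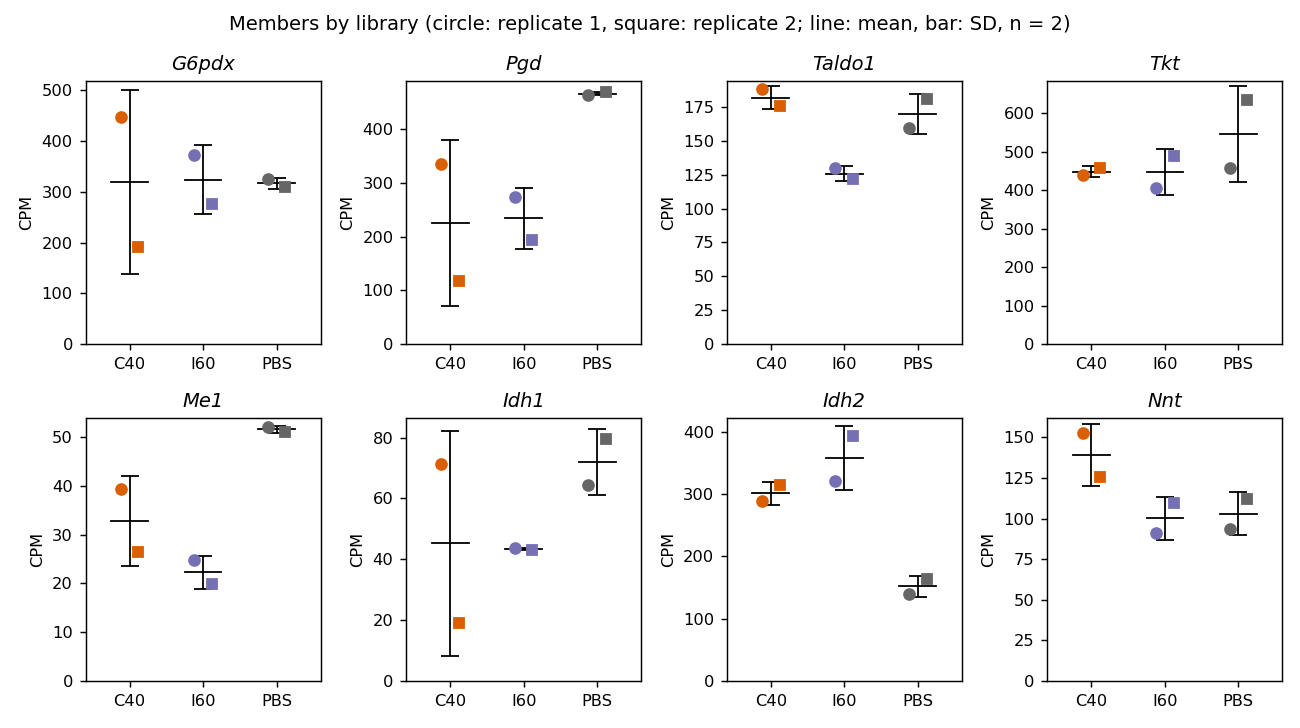
CPM of each of the 8 genes (one panel per gene, y axes from 0) in C40, I60 and PBS, with a circle for replicate 1, a square for replicate 2, a line at the mean and a bar for the SD (n = 2). All 4 Idh2 values of the H2O2 lines lie above both PBS values, and all 4 Me1 and Pgd values lie below.

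G6pdx encodes the enzyme that commits glucose-6-phosphate to the oxidative branch (chromosome X, 74409483 to 74428880, GRCm38.p6). It had 447 and 190 CPM in the C40 libraries, 372 and 276 CPM in I60 and 324 and 309 CPM in PBS. The H2O2 libraries thus lay on both sides of the narrow PBS pair, and the means were close: 318 ± 181 CPM in C40, 324 ± 67.6 in I60 and 317 ± 11.2 in PBS (SD, n = 2). The log2 fold change was -0.12 in C40 (95% interval -1.01 to 0.77, limma adjusted p = 0.85) and 0.02 in I60 (-0.87 to 0.91, limma adjusted p = 0.978). These intervals leave room for a difference of up to about 2-fold in either direction. Without C40 replicate 1, G6pdx passed as lower in C40 (log2 -0.73, limma adjusted p = 0.0409), and without C40 replicate 2 its value was 0.50 (limma adjusted p = 0.158; 0.0409 to 0.987 over 15 alternatives). Ikbkg lies over G6pdx exons on the opposite strand, and it is not known here whether the counting used the strand. The retrogene G6pd2 shares 0.942% of the 81-base stretches of G6pdx, and its own CPM was 2.42% to 2.70% of the G6pdx value in every library.

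Pgd encodes 6-phosphogluconate dehydrogenase, the second NADPH-forming step of the same branch (chromosome 4, 149149991 to 149166705). It had 335 and 117 CPM in C40, 274 and 194 CPM in I60 and 463 and 468 CPM in PBS. Every H2O2 library lay below both PBS libraries, but the spread within C40 was wide. The means were 226 ± 154 CPM in C40, 234 ± 57.1 in I60 and 466 ± 3.45 in PBS (SD, n = 2). The log2 fold change was -1.23 in C40 (95% interval -2.30 to -0.17, limma adjusted p = 0.0988) and -1.01 in I60 (-2.08 to 0.05, limma adjusted p = 0.144), so Pgd was not called. In C40, Pgd passed in 2 of 15 alternatives, of which 1 had the replicate number as a block (limma adjusted p = 0.0366). In I60 it passed in 3 of 15, each with at least 1 C40 library left out. With I60 and PBS alone, Pgd passed in I60 (17.9% of all genes were called lower in that fit; limma adjusted p = 0.00541; 0.00531 to 0.461 over 15 alternatives). Without C40 replicate 1, its log2 fold change in C40 was -1.99 (limma adjusted p = 0.00113, beside 15.2% of all genes called lower), and without C40 replicate 2 it was -0.47 (limma adjusted p = 0.197; 0.00113 to 0.339 over 15 alternatives).

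Within each library the ratio of G6pdx to Pgd, in CPM per kb of exon, was 2.79 and 3.41 in C40, 2.83 and 2.98 in I60 and 1.47 and 1.38 in PBS. This ratio was chosen after its values were seen and was not tested. It was higher in all 4 H2O2 libraries than in either PBS library, although G6pdx and Pgd each varied over 2-fold between the C40 libraries. With the length of the principal transcript in place of all exons, an option chosen after seeing the data, the same ratio was 1.11 and 1.36 in C40, 1.13 and 1.19 in I60 and 0.586 and 0.551 in PBS. The order of the libraries was the same, whereas the answer to which of the pair stood higher in PBS depended on the length used.

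Taldo1 encodes transaldolase of the non-oxidative branch (chromosome 7, 141392160 to 141402976). It had 188 and 176 CPM in C40, 130 and 122 CPM in I60 and 159 and 180 CPM in PBS. The I60 libraries were the lowest of the 6, and the C40 and PBS libraries overlapped. The means were 182 ± 8.70 CPM in C40, 126 ± 5.56 in I60 and 169.9 ± 14.8 in PBS (SD, n = 2). The log2 fold change was 0.10 in C40 (95% interval -0.27 to 0.46, limma adjusted p = 0.687) and -0.43 in I60 (-0.80 to -0.07, limma adjusted p = 0.0822). Tkt, transketolase, works in the same branch (chromosome 14, 30549131 to 30574724) and had 438 and 458 CPM in C40, 406 and 490 CPM in I60 and 457 and 633 CPM in PBS. Its groups overlapped, since PBS replicate 2 alone stood above the other 5 libraries. The log2 fold change of Tkt was -0.26 in C40 (95% interval -0.75 to 0.22, limma adjusted p = 0.397) and -0.27 in I60 (-0.75 to 0.21, limma adjusted p = 0.371).

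Me1 encodes the cytosolic malic enzyme, which turns malate into pyruvate with the reduction of NADP (chromosome 9, 86581363 to 86695914). It had 39.4 and 26.4 CPM in C40, 24.7 and 19.9 CPM in I60 and 52.1 and 51.1 CPM in PBS. All 4 H2O2 libraries lay below the PBS pair, with I60 the lowest. The means were 32.9 ± 9.22 CPM in C40, 22.3 ± 3.42 in I60 and 51.6 ± 0.699 in PBS (SD, n = 2). Me1 fell 2.30-fold in I60 (log2 -1.20, SE 0.25, 95% interval -1.79 to -0.61, limma adjusted p = 0.0120). This call was lost without I60 replicate 2, PBS replicate 1 or PBS replicate 2 (limma adjusted p = 0.0957, 0.0943 and 0.0787), at log2 fold changes of -1.05, -1.19 and -1.21. In C40 the log2 fold change was -0.67 (95% interval -1.26 to -0.08, limma adjusted p = 0.102), which passed in 1 of 15 alternatives, without C40 replicate 1 (limma adjusted p = 0.0230). Of the 81-base stretches of Me1, 15.3% also occur in the related loci Gm7049 and Gm7329, which have no row in the table, and A330041J22Rik is annotated antisense to it, so some of its reads are uncertain.

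Idh1 encodes the isocitrate dehydrogenase of cytosol and peroxisomes (chromosome 1, 65158616 to 65186479). It had 71.3 and 19.1 CPM in C40, 43.7 and 43.1 CPM in I60 and 64.4 and 79.7 CPM in PBS. The I60 libraries were nearly equal and below PBS, while C40 replicate 1 lay among the PBS values and C40 replicate 2 was the lowest of all. The means were 45.2 ± 36.9 CPM in C40, 43.4 ± 0.412 in I60 and 72.1 ± 10.8 in PBS (SD, n = 2). The log2 fold change was -0.94 in C40 (95% interval -2.21 to 0.32, limma adjusted p = 0.252) and -0.72 in I60 (-1.98 to 0.55, limma adjusted p = 0.363). With I60 and PBS alone, Idh1 passed in I60 at the same fold change (limma adjusted p = 0.0168; 0.0162 to 0.655 over 15 alternatives). In C40 the value rested on 1 library: the log2 fold change was -1.88 without replicate 1 (limma adjusted p = 0.00122) and -0.007 without replicate 2 (limma adjusted p = 0.986).

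Idh2 encodes the mitochondrial counterpart of Idh1 (chromosome 7, 80094845 to 80118608). It had 288 and 314 CPM in C40, 321 and 393 CPM in I60 and 140 and 163 CPM in PBS. Every H2O2 library lay well above both PBS libraries, and the C40 libraries were close to each other. The means were 301 ± 18.4 CPM in C40, 357 ± 51.1 in I60 and 152 ± 16.4 in PBS (SD, n = 2). Idh2 rose 1.98-fold in C40 (log2 0.99, SE 0.17, 95% interval 0.58 to 1.40, limma adjusted p = 0.00852) and 2.35-fold in I60 (log2 1.23, SE 0.17, 95% interval 0.82 to 1.64, limma adjusted p = 0.00238). The I60 call held under all 15 alternatives, and the C40 call was lost in 1 of 15, without PBS replicate 1 (log2 0.88, limma adjusted p = 0.0897). In bulk RNA, more cells expressing a gene and more RNA per cell cannot be told apart.

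Nnt encodes the transhydrogenase of the inner mitochondrial membrane, which passes hydride from NADH to NADP using the proton gradient (chromosome 13, 119335527 to 119409257). It had 153 and 126 CPM in C40, 90.8 and 109 CPM in I60 and 93.7 and 112 CPM in PBS. The C40 libraries were the 2 highest, and I60 and PBS overlapped. The means were 139 ± 19.3 CPM in C40, 100.1 ± 13.2 in I60 and 103 ± 13.1 in PBS (SD, n = 2). The log2 fold change was 0.43 in C40 (95% interval -0.02 to 0.89, limma adjusted p = 0.158) and -0.04 in I60 (-0.50 to 0.42, limma adjusted p = 0.897), so Nnt did not pass in either line. The rise of Idh2 therefore had no called counterpart in Nnt, though the difference between both genes was not tested.

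**Figure D2:**
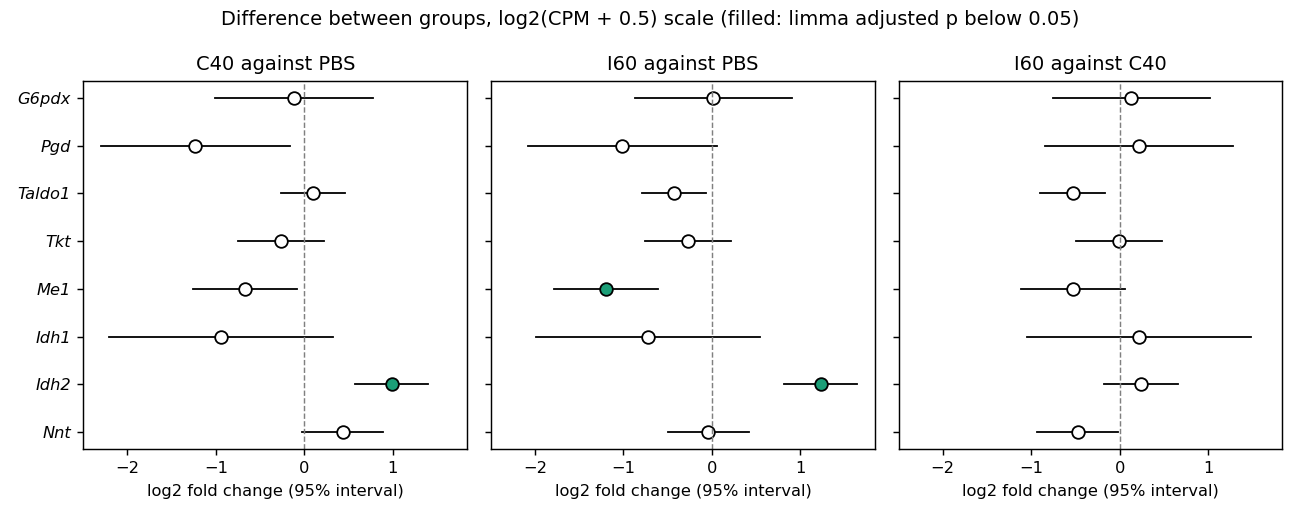
Log2 fold change of each of the 8 genes (points) with its 95% interval (bars) for C40 against PBS, I60 against PBS and I60 against C40, filled where limma's adjusted p is below 0.05. Idh2 is filled in both comparisons with PBS (0.99 and 1.23) and Me1 in I60 against PBS (-1.20); no point is filled for I60 against C40.

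The level of mitochondrial sources relative to the cytosolic Idh1 and Me1 was described as a ratio within each library. It was taken in CPM per kb of exon and does not depend on the scaling of the library. The ratio of Idh2 to Idh1 was 4.32 and 17.6 in C40, 7.88 and 9.78 in I60 and 2.33 and 2.19 in PBS. All 4 H2O2 libraries exceeded both PBS libraries, and the high value of C40 replicate 2 coincided with its low Idh1. Summing the mitochondrial Idh2, Nnt and Me3 over the cytosolic Idh1 and Me1 gave 3.70 and 10.1 in C40, 6.18 and 8.10 in I60 and 1.84 and 1.88 in PBS. Me3, a mitochondrial malic enzyme, added little, at 1.11 to 3.18 CPM per library. The cytosolic sources G6pdx and Pgd were left out of this ratio. Per kb, each of them stood above both Idh1 and Me1 in every library, with either definition of length. The summed ratio therefore does not show whether mitochondrial or cytosolic sources as a whole had the higher RNA level. Idh2 made up 21.7% and 32.3% of the summed per-kb level of the 8 genes in C40, 28.4% and 35.3% in I60 and 13.0% and 13.6% in PBS. It ranked 2 and 1 among the 8 in the C40 libraries, 1 in both I60 libraries and 5 in both PBS libraries, with either definition of length. Me1 was the lowest of the 8 in every library by principal transcript, and by all exons in every library but PBS replicate 1, where Nnt was lower. Idh2 and Me1 ran opposite over the 6 libraries (Pearson r = -0.93 on the log2 scale), which describes mostly the difference between the H2O2 lines and PBS.

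**Figure D3:**
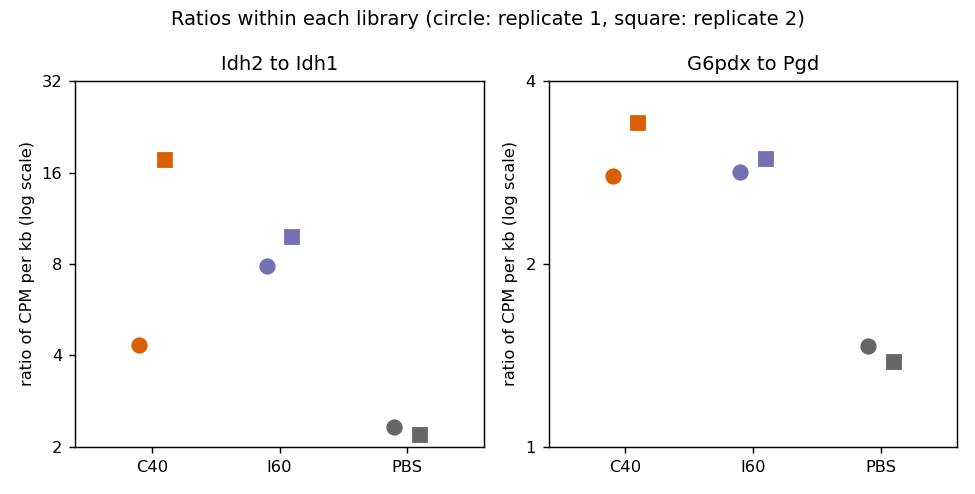
Ratios of CPM per kb of exon within each library (y axis on a log2 scale) in C40, I60 and PBS, with a circle for replicate 1 and a square for replicate 2. The ratios shown are Idh2 to Idh1 and G6pdx to Pgd. In each, the 4 H2O2 libraries lie above both PBS libraries. C40 replicate 2 gives the highest value, 17.6 for Idh2 to Idh1.

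Among the 8 enzymes, the C40 libraries differed most in Idh1, Pgd and G6pdx. Idh1 was 3.73-fold lower in C40 replicate 2 than in replicate 1, Pgd 2.87-fold, G6pdx 2.35-fold and Me1 1.49-fold. The remaining members, Taldo1, Tkt, Idh2 and Nnt, differed by log2 values of -0.28 to 0.12. The SD of the difference between the C40 libraries across all genes tested was 0.623, which the first 3 exceeded and Me1 (log2 -0.57) did not. In I60 replicate 2 also lay below replicate 1 in G6pdx (log2 -0.43), Pgd (-0.50) and Me1 (-0.31) but not appreciably in Idh1 (-0.02), and in PBS the differences of all 8 were -0.07 to 0.47. Over the 6 libraries, Pearson's r on the log2 scale was 0.94 between Idh1 and Pgd, 0.80 between Me1 and Pgd, 0.79 between Idh1 and G6pdx and 0.71 between G6pdx and Pgd. These 6 libraries share their groups, so the values are descriptions, and the low level of C40 replicate 2 enters each of them.

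**Figure D4:**
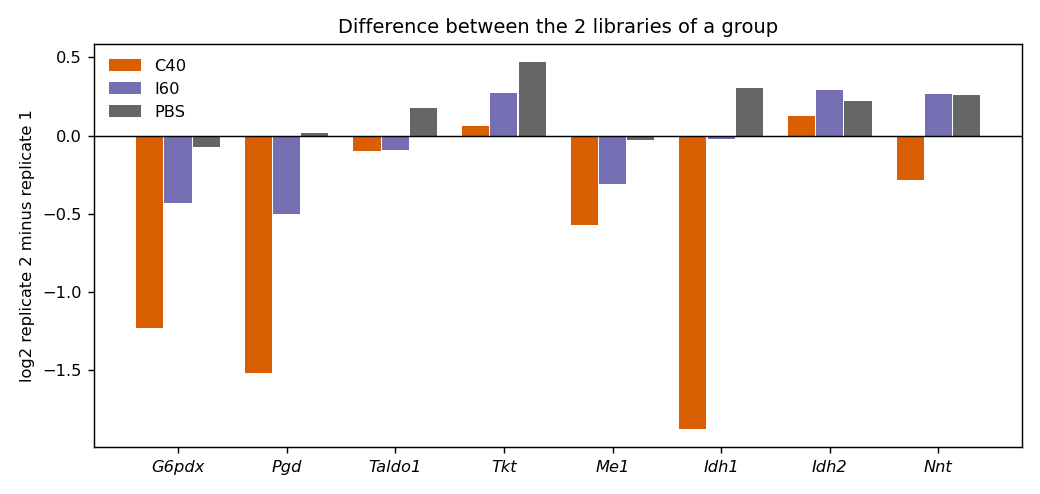
Log2 difference between replicate 2 and replicate 1 of a group (y axis) for each of the 8 genes (x axis), in C40, I60 and PBS. The C40 differences reach -1.87 for Idh1, -1.52 for Pgd and -1.23 for G6pdx, while those of Taldo1, Tkt, Idh2 and Nnt lie between -0.28 and 0.12.

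I60 was compared with C40 to show whether the lines differed from each other, which also tests whether their differences from PBS were unequal. None of the members was called: limma gave 0 of 8, beside 9.23% of all genes tested (3.51% higher, 5.73% lower), with 2 of 8 at an unadjusted p below 0.05, both lower in I60. edgeR's quasi-likelihood test also called 0 (6.04% of all genes lower), and DESeq2 called 1, Taldo1 (adjusted p = 0.0467, beside 9.23% of all genes lower). Taldo1 averaged 126 CPM in I60 and 182 CPM in C40, a log2 fold change of -0.53 (95% interval -0.89 to -0.16, limma adjusted p = 0.0907; 0.0467 to 0.352 over 15 alternatives). Nnt, at -0.47 (95% interval -0.93 to -0.02, limma adjusted p = 0.210), was the other member with an unadjusted p below 0.05. For Me1 the log2 fold change was -0.53 (95% interval -1.12 to 0.06, limma adjusted p = 0.275) and for Idh2 0.24 (-0.17 to 0.65, limma adjusted p = 0.491). The call of Me1 in I60 alone thus does not show that it differed between the lines. Pgd and Idh1 gave 0.22 each (limma adjusted p = 0.835 and 0.862), and both passed as higher in I60 only when C40 replicate 1 was left out (limma adjusted p = 0.0309 and 0.0141, beside 7.22% of all genes).

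Counted by library, 2 members were higher in both C40 libraries than in both PBS libraries (Idh2, Nnt) and 2 were lower (Pgd, Me1), beside 30.9% and 31.8% of all genes tested. For I60 against PBS, 1 was higher (Idh2) and 4 were lower (Pgd, Taldo1, Me1, Idh1), beside 35.5% and 35.2%. For I60 against C40, 1 was higher (Idh2) and 3 were lower (Taldo1, Me1, Nnt), beside 24.4% in each direction. With 8 genes such shares are coarse, and nothing particular to these enzymes is read from them.

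The pathway was completed with 51 further genes in 8 lists, of which 48 were tested. By limma, 4 of these 48 were called higher and 2 lower in C40, beside 11.2% and 9.02% of all genes tested. In I60, 4 were higher and 7 lower, beside 13.9% and 13.1%, with medians in C40 and I60 of -0.10 and -0.003 on the log2 scale. Without PBS replicate 1 the counts in C40 were 1 higher and 0 lower (4.76% and 3.69% of all genes), and those in I60 were 2 higher and 1 lower (6.69% and 6.42%). Leaving out C40 replicate 1 gave 8 higher and 6 lower in C40 (14.9% and 15.2% of all genes), and 8 higher and 10 lower in I60 (18.4% and 17.9%). For I60 against C40, limma called 0 of the 48, beside 3.51% of all genes tested called higher and 5.73% lower. At an unadjusted p below 0.05 there were 7. In this comparison edgeR called 0 and DESeq2 called 1, lower in I60, beside 6.04% and 9.23% of all genes called lower.

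In the oxidative branch (G6pdx, G6pd2, H6pd, Pgls, Pgd), 0 of 5 genes passed in C40 or I60 by limma, edgeR or DESeq2, with 2 at an unadjusted p below 0.05 in C40 and 0 in I60. Pgls, the lactonase between G6pdx and Pgd, averaged 122 ± 10.6 CPM in C40, 92.8 ± 10.7 in I60 and 82.1 ± 16.8 in PBS (SD, n = 2; limma adjusted p = 0.0873 and 0.536). H6pd, which carries out the first steps of this branch inside the endoplasmic reticulum, had 26.3 and 17.8 CPM in C40, 33.0 and 38.5 CPM in I60 and 29.1 and 37.1 CPM in PBS (limma adjusted p = 0.152 and 0.77).

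In the non-oxidative branch 6 of 8 genes were tested, Tktl1 and Tktl2 being too low. Neither direction held a limma call in C40 (0 of 6, with 3 at an unadjusted p below 0.05; edgeR 0, DESeq2 2). In I60, 2 fell and 0 rose. Rpe, ribulose-phosphate epimerase, averaged 22.1 ± 0.494 CPM in I60 and 46.2 ± 8.73 in PBS (SD, n = 2; log2 -1.03, limma adjusted p = 0.0116). Rpia, ribose-5-phosphate isomerase, averaged 37.3 ± 4.15 CPM in I60 and 82.2 ± 19.9 in PBS (log2 -1.11, limma adjusted p = 0.0312). Both enzymes act on ribulose-5-phosphate, the product of Pgd. The Rpe call was lost without I60 replicate 1, I60 replicate 2 or PBS replicate 1 (limma adjusted p = 0.0673 to 0.113), and the Rpia call without any of the I60 or PBS libraries (0.0745 to 0.187) or without the filter on low values (0.0624). Shpk, which makes sedoheptulose-7-phosphate, averaged 18.2 ± 7.46 CPM in C40, 5.58 ± 4.51 in I60 and 4.87 ± 1.68 in PBS and did not pass in C40 (limma adjusted p = 0.0714), although 6 of 15 alternatives called it, DESeq2 and the replicate block among them (0.00764 to 0.355).

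Of 5 genes that supply phosphoribosyl pyrophosphate, Pgm2 rose in I60, and no other passed in either line (in C40 0 of 5 by all tools, with 0 at an unadjusted p below 0.05). Pgm2, a phosphopentomutase, averaged 70.6 ± 3.82 CPM in I60 and 37.4 ± 0.632 in PBS (SD, n = 2; log2 0.91, limma adjusted p = 0.0190). The call was lost without any of the I60 or PBS libraries (limma adjusted p = 0.0858 to 0.122).

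Among the 9 malic enzymes, isocitrate dehydrogenases and transhydrogenase, limma called 2 higher in C40 (Idh2, Idh3g), and in I60 it called the same 2 higher and Me1 and Idh3a lower. DESeq2 called 4 higher in C40 (Idh2, Idh3g, Idh3b, Me2) and 1 lower (Idh3a), and in I60 3 higher (Idh2, Idh3g, Idh3b) and 2 lower (Me1, Idh3a). Over all genes tested DESeq2 also called more than limma in each direction, such as 13.1% against 9.02% lower in C40. Its other counts over all genes are given with the processing. Idh3g, a regulatory subunit of the NAD-dependent isocitrate dehydrogenase of the citric acid cycle, averaged 191 ± 0.917 CPM in C40, 214 ± 6.39 in I60 and 110 ± 4.39 in PBS (SD, n = 2). Against PBS, limma gave C40 a log2 fold change of 0.79 (adjusted p = 0.00973) and I60 one of 0.95 (adjusted p = 0.00321), and the C40 call was lost without either PBS library (0.0603 to 0.0919). Idh3a, the catalytic subunit of the same enzyme, averaged 132 ± 22.2 CPM in I60 and 235 ± 20.3 in PBS (log2 -0.84, limma adjusted p = 0.0226), a call lost without any of the I60 or PBS libraries (0.0510 to 0.160). Subunits of 1 enzyme that does not make NADPH thus gave calls in opposite directions in I60. Idh3b, the other regulatory subunit, averaged 149.8 ± 5.55 CPM in C40, 151 ± 2.35 in I60 and 109 ± 0.692 in PBS, with a limma adjusted p of 0.0653 in C40 and 0.0516 in I60.

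Folate-linked NADPH supply had 7 of 8 genes tested, of which Mthfd2l fell in I60 and 0 passed in C40 by limma (1 at an unadjusted p below 0.05; edgeR 0, DESeq2 1). Mthfd2l, a mitochondrial methylenetetrahydrofolate dehydrogenase, averaged 6.23 ± 1.08 CPM in I60 and 16.7 ± 0.423 in PBS (SD, n = 2; log2 -1.36, limma adjusted p = 0.00574). The call was lost without I60 replicate 1 or PBS replicate 1 (limma adjusted p = 0.0512 and 0.0583).

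In the 7 genes of NAD and NADP supply, limma called Nmnat3 higher and Nadsyn1 lower in both lines, and Nadk lower in I60, where DESeq2 also called Nmnat2 higher. Nmnat3, an NAD-synthesizing adenylyltransferase known from mitochondria, had 171 and 355 reads in C40, 269 and 419 reads in I60 and 1 and 3 reads in PBS. That is 5.04 ± 2.10 CPM in C40, 6.38 ± 1.90 in I60 and 0.0336 ± 0.0228 in PBS (SD, n = 2; limma adjusted p = 0.000914 and 0.000337), and both calls held without each library in turn. Nadsyn1, an NAD synthetase, averaged 29.5 ± 1.25 CPM in C40, 19.9 ± 3.66 in I60 and 58.0 ± 11.8 in PBS (log2 -0.95 and -1.52, limma adjusted p = 0.0300 and 0.00336). Its C40 call was lost without any of the I60 or PBS libraries (0.0519 to 0.177). Nadk, the cytosolic kinase that makes NADP from NAD, averaged 201 ± 34.5 CPM in I60 and 323 ± 24.3 in PBS (log2 -0.69, limma adjusted p = 0.0261), lost without I60 replicate 2 or either PBS library (0.0931 to 0.177).

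Of the 9 genes of citrate and malate exchange, Acly fell in both lines, and limma and edgeR called no other. DESeq2 also called Slc25a10, the mitochondrial dicarboxylate carrier, in I60 (adjusted p = 0.0435; 0.00622 to 0.443 over 15 alternatives, of which 5 called it). Slc25a10 had 125 and 36.2 CPM in C40, 89.4 and 51.1 CPM in I60 and 176 and 164 CPM in PBS (limma adjusted p = 0.131 and 0.119). Acly, which splits cytosolic citrate into acetyl-CoA and oxaloacetate, averaged 388 ± 147 CPM in C40, 307 ± 61.7 in I60 and 882 ± 43.1 in PBS (SD, n = 2). Against PBS, limma gave C40 a log2 fold change of -1.24 (adjusted p = 0.0224) and I60 one of -1.54 (adjusted p = 0.00698). The C40 call was lost without either PBS library (0.122 to 0.128) or without the filter on low values (0.0577), and the I60 call without I60 replicate 2 or either PBS library (0.0558 to 0.0698).

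Among 8 regulators, Trp53 rose in both lines and Sirt2 in C40. Trp53, which encodes p53, averaged 365 ± 28.3 CPM in C40, 401 ± 43.9 in I60 and 194 ± 21.2 in PBS (SD, n = 2; log2 0.91 and 1.04, limma adjusted p = 0.0105 and 0.00428). Both calls were lost without PBS replicate 1 (limma adjusted p = 0.106 and 0.0526). Sirt2, an NAD-dependent deacetylase, averaged 93.4 ± 12.4 CPM in C40 and 50.8 ± 6.97 in PBS (log2 0.87, limma adjusted p = 0.0251), lost without C40 replicate 2 or either PBS library (0.0647 to 0.187). Nfe2l2, which encodes NRF2, had 164 and 213 CPM in C40, 141 and 145 CPM in I60 and 144 and 143 CPM in PBS (limma adjusted p = 0.168 and 0.987). Keap1, its inhibitor, averaged 89.9 ± 37.9 CPM in C40, 85.3 ± 17.0 in I60 and 104 ± 6.74 in PBS (limma adjusted p = 0.56 and 0.515), so the RNA of neither passed.

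**Figure D5:**
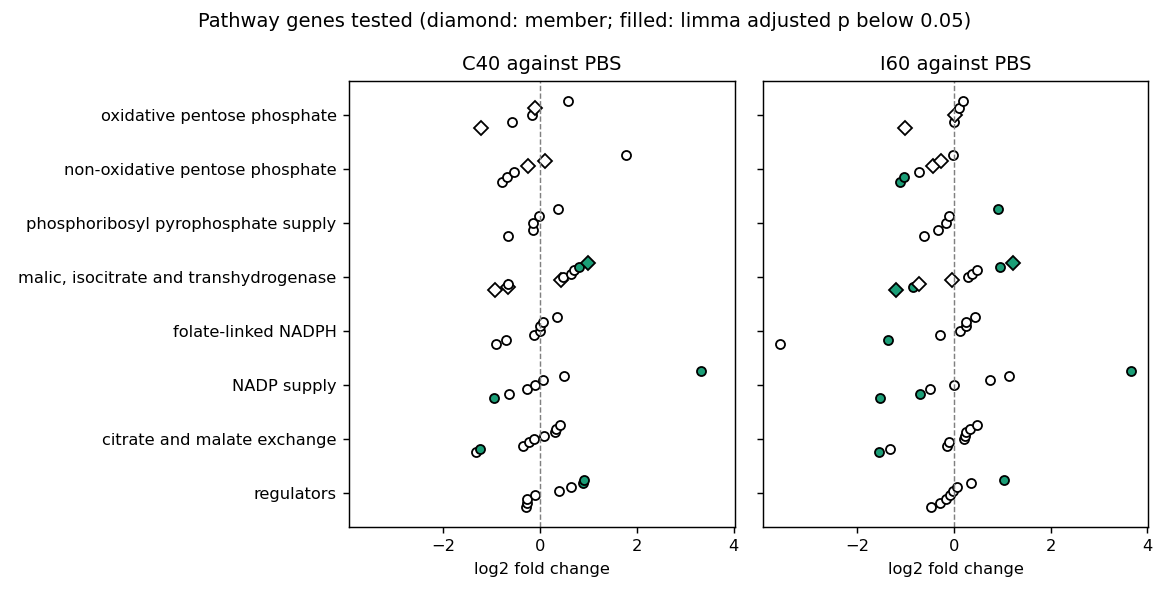
Log2 fold change (x axis) of the tested genes of the 8 pathway lists (rows) for C40 against PBS and I60 against PBS, with diamonds for the 8 enzymes and filled marks where limma's adjusted p is below 0.05. Most marks lie near 0 and are open; Nmnat3 lies furthest to the right of the filled marks (3.32 and 3.66).

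By position, the 20 tested genes nearest to Idh2 on chromosome 7 had a median log2 fold change of 0.38 in C40, with 5 called higher and 0 lower, and of 0.46 in I60, with 6 higher and 0 lower. Over all genes tested, 11.2% were called higher in C40 and 13.9% in I60, and 9.02% and 13.1% lower. Those around Pgd on chromosome 4 had a median of -0.59 in C40 (1 higher, 4 lower) and -0.31 in I60 (2 higher, 5 lower). The neighbours of Me1 had medians of -0.12 in C40 and -0.11 in I60, and those of Idh1 -0.31 and -0.36. The neighbours of Tkt had medians of 0.12 in C40 and 0.32 in I60, opposite in sign to Tkt itself. The median of the neighbours had the sign of the member's own fold change for 4 of the 8 members in C40 and 5 of 8 in I60, and the part of position in these values was not tested.

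Among 10030 genes compared on the log2 scale over the 6 libraries, the patterns most like that of Idh2 were those of Pex6, Zfp839 and Pde4dip (Pearson r = 0.998, 0.998 and 0.997). Pex6, an ATPase of peroxisome assembly, had 38.7 and 46.6 CPM in C40, 48.3 and 59.0 CPM in I60 and 15.9 and 20.2 CPM in PBS. Those most like Me1 were Mboat1, Tarbp1 and Zw10 (r = 0.9997, 0.998 and 0.997). Mboat1, a lysophospholipid acyltransferase, had 97.4 and 56.6 CPM in C40, 52.5 and 37.7 CPM in I60 and 149 and 141 CPM in PBS. Like Me1, it was lowest in I60 replicate 2 and highest in PBS. With 6 libraries in 3 groups such values are descriptions of these libraries.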

How the data were processed

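Total RNA of 6 Py2T libraries, 2 for each of 3 groups, was depleted of ribosomal RNA and read as single reads, per the labels' protocols. STAR and the build mm10 are named in the submitters' processing notes without a version, and neither the counting program nor its use of strand was given in the sources used here. CPM per Entrez gene, as the authors computed them, make up the deposited table. RefSeq GRCm38.p6 named 24374 of the 24454 IDs, GENCODE another 7, and 73 stayed without a symbol. GENCODE exon lengths gave CPM per kb.

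The 8 members and the lists were chosen with earlier results of these data known. The test covered 11524 genes that reached 1 CPM in 2 or more libraries, with limma 3.58.1 in R 4.3.3, two-sided, with an intensity trend on log2(CPM + 0.5). All 6 libraries and 3 groups were in 1 model with 3 residual degrees of freedom, and p-values were adjusted by Benjamini-Hochberg over all genes tested. Fold changes are on that log2 scale, which understates the change of low genes. Named genes were the members, tested genes of the lists, cell type markers and the 3 genes most like each called member.

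Of the CPM values, 100% gave whole reads within a tolerance of 0.01 when divided by the value of 1 read. On these reads edgeR 4.0.16 called 1351 genes higher and 1016 lower in C40 against PBS, 1626 and 1484 in I60 against PBS, and 388 and 696 in I60 against C40. DESeq2 1.42.0 called 1815 and 1507, 1960 and 1897, and 605 and 1064. Other alternatives changed the pseudocount, filter, scaling, groups, libraries or replicate block. The scripts were tested on simulated data.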

Additional observations from a re-analysis of the deposited data

How the results depend on the processing

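Over leaving out each library in turn, genes called in C40 against PBS numbered 549 to 1717 higher and 425 to 1750 lower. In I60 against PBS they numbered 756 to 2120 and 740 to 2070, and in I60 against C40 140 to 832 and 249 to 937. I60 against C40 had 1064 genes lower by DESeq2 and 418 with only those groups fitted. Of the 8 enzymes, 0 to 1 were called higher and 0 to 4 lower in C40 against PBS when a library was left out. The 4 without C40 replicate 1 were G6pdx, Pgd, Me1 and Idh1, beside 15.2% of all genes called lower there. In I60 against PBS, 0 to 3 were lower when a library was left out, and 3 (Pgd, Me1, Idh1) with only those groups fitted, beside 17.9% of all genes. In I60 against C40, 0 to 2 were higher (Pgd and Idh1, without C40 replicate 1), and DESeq2 called 1 lower. Some values that had not been called changed sign. G6pdx in C40 gave 0.013 by edgeR and 0.011 by DESeq2 (log2), and -0.73 to 0.50 over the libraries left out. Over the libraries left out it gave -0.20 to 0.23 in I60 against PBS and -0.48 to 0.75 in I60 against C40. In I60 against C40, Pgd gave -0.54 to 0.98, Tkt -0.14 to 0.13 and Idh1 -0.71 to 1.16, with Idh1 at -0.049 by edgeR and -0.061 by DESeq2. Nnt in I60 against PBS gave -0.17 to 0.093. The cause of these changes was not tested. Of the members' fold changes under the 15 alternatives, 326 kept direction and side of the threshold, 16 changed sign, 14 passed it and 4 no longer did.

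The replicate number was tried as a block, though the labels do not say that it marks a shared batch. The replicate differences of the groups correlated across genes at 0.438 (C40 and I60), 0.154 (C40 and PBS) and 0.105 (I60 and PBS). With the replicate block, 1552 genes were higher and 1301 lower in C40 against PBS, 1786 and 1708 in I60 against PBS, and 472 and 781 in I60 against C40. It added 1 member, Pgd in C40 (adjusted p = 0.0366; 0.00113 to 0.339 over 15 alternatives), and changed no other call of a member. Among the pathway genes it added Shpk, Idh3a, Me2 and Slc25a10 in C40 against PBS, Aldh1l2, Nmnat2 and Slc25a10 in I60 against PBS, and Shpk and Nmnat2 in I60 against C40. The number of libraries limits the precision: 1 read equals 0.0166 to 0.0208 CPM, far below the levels of the 8 enzymes.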

Other observations

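Of the 7 tested genes of folate-linked NADPH supply, 3 (Mthfd2, Aldh1l2 and Shmt2) were highest of the 6 libraries in C40 replicate 2. Idh1, Pgd and G6pdx were lowest in that library. The 3 folate genes are named here after their values were seen. The share of all genes tested that were highest in that library was not counted, so nothing particular to this list is read from the count. Mthfd2 had 122 and 439 CPM in C40, 130 and 283 CPM in I60 and 188 and 288 CPM in PBS. Aldh1l2, which oxidizes formyl-tetrahydrofolate and reduces NADP, had 35 and 1156 reads in C40, 0 and 45 reads in I60 and 445 and 663 reads in PBS. Shmt2, the serine hydroxymethyltransferase of mitochondria, had 614 and 1213 CPM in C40, 756 and 879 CPM in I60 and 584 and 794 CPM in PBS. In each of the 3 genes, replicate 2 lay above replicate 1 in every group. The other 4 tested genes of the list were not highest in C40 replicate 2. Of these, Mthfd1l had 211 and 302 CPM in C40, 305 and 394 CPM in I60 and 237 and 273 CPM in PBS. Its replicate 2 thus also lay above replicate 1 in every group. Mthfd2l had 9.33 and 10.7 CPM in C40 and 17.0 and 16.4 CPM in PBS. None of the 3 was called by limma in C40 or I60 against PBS (Aldh1l2 in I60 had adjusted p = 0.0679, at log2 -3.58; 0.000816 to 0.290 over 15 alternatives, of which 4 called it).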
